A study of Mus musculus with 8 samples.

Results

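The Smad genes encode the proteins that carry BMP and TGF-β signals from the receptors to the nucleus, together with the inhibitors of that relay. The 8 genes Smad1, Smad2, Smad3, Smad4, Smad5, Smad6, Smad7 and Smad9 were taken by symbol from the 22609 gene symbols of the deposited count tables, and all 8 were among the 13121 genes that passed the filter on low counts. They were examined in iBmp2 fx/fx cells, which carry floxed Bmp2 alleles, and iBmp2 ko/ko cells, in which Bmp2 is knocked out. Both are immortalized lines of mouse dental papilla cells, the mesenchymal cells under the enamel organ from which odontoblasts arise. They are called fx/fx and ko/ko cells from here on. Total RNA was sequenced in 8 libraries, 1 for each genotype at 6, 24, 48 and 72 h of culture. No treatment is named for either genotype in the labels. The labels do not say that the libraries came from separate cultures, and each genotype was a single cell line, so a difference between genotypes is also a difference between lines.

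Ligand binding brings type I and type II receptors together, and the type I receptor then phosphorylates receptor-activated Smads. Smad1, Smad5 and Smad9 are the substrates of BMP receptors, Smad2 and Smad3 those of TGF-β and activin receptors, and both sets join the common partner Smad4 to enter the nucleus. Smad6 and Smad7 are inhibitory Smads that interfere with the receptors and with complex formation, and both genes are known targets of the pathways they restrain. In tooth development BMP signals pass between epithelium and mesenchyme and accompany the differentiation of odontoblasts.

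The main comparison used the 3 fx/fx and 3 ko/ko libraries of 6, 48 and 72 h, the times given in the methods of the study. Both 24 h libraries are given as values beside the test and enter alternatives to it. The library labelled Ko 24 h differed from the ko/ko libraries of other times in Smad6, Smad7 and Smad9, with this difference known when it was set apart. Of the 291 genes that passed the test of genotype, 287 had a Ko 24 h level nearer to the fx/fx mean than to the ko/ko mean on the log2 scale, against 64.9% of all genes tested. For the fx/fx library of 24 h this held for 271 of the 291, against 72.7% of all genes tested. Both 24 h libraries thus lay with the fx/fx libraries in most genes that passed, and whether the label Ko 24 h is right could not be checked, so its values are those of the library so labelled. The reads counted on genes ran from 25890110 to 32415665 over the 8 libraries. Bmp2 had 1 read in 1 library and 0 in the other 7, where a floor of 3 counts lies at 0.0925 to 0.116 CPM (reads per 1000000 reads counted on genes), so its level could not check the genotype labels in any library. A set of 7 general mesenchyme markers summed to 7101 to 9155 CPM in fx/fx and 9493 to 13870 CPM in ko/ko cells. The collagens and Vim carried most of this sum, and Twist1 and Pdgfra were lower in ko/ko at 6, 48 and 72 h, Twist1 at 77.0, 70.9 and 73.2 CPM against 80.1, 95.3 and 96.7 CPM. Dental mesenchyme markers summed to 87.7 to 99.3 and 33.6 to 51.4 CPM, with Lhx8 and Barx1 at no more than 3 counts in all libraries. The odontoblast markers Dspp and Ibsp were also at no more than 3 counts in all libraries.

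Smad9 and Smad6 fell strongly in the ko/ko cells, to 9.10% and 13.8% of their fx/fx means. Smad7 was at 26.7% of its fx/fx mean, with no overlap between the genotypes, but did not pass the adjusted limit without a block for culture time. Smad1 stood at 65.2% and Smad2 at 127%, also without overlap, and neither passed without that block. Smad3, Smad4 and Smad5 overlapped between the genotypes, at 113%, 108% and 89.4%. Thus, without a block, 2 of the 8 genes passed the test (adjusted p at most 0.05), both lower. Of all genes tested 2.22% passed it, 1.3% lower and 0.915% higher. With culture time as a block over the same libraries 5 of the 8 passed, against 22.7% of all genes tested. With both 24 h libraries included no gene of the table passed without a block, and Smad9 and Smad6 had adjusted p = 0.526 and 0.511 by edgeR. Over these 8 libraries with culture time as a block, 40 genes passed and no Smad gene, with adjusted p = 0.114 and 0.143, so both calls were lost with the library labelled Ko 24 h in either fit. The text of the study gives a limit of p under 0.05 with an absolute log2 fold change above 1, where a figure legend gives a Q value. This limit was applied here to the unadjusted p of edgeR, while the study used limma. Smad6, Smad7 and Smad9 passed it, all lower, against 7.35% of all genes in either direction and 4.04% lower. The levels did not overlap between the 3 libraries of each genotype for 5 of the 8 genes, against 19.3% of all genes tested. In 4 of these 5 the ko/ko levels were the lower (10.5% of all genes) and in 1 the higher (8.76%). In 2 of the 4, Smad6 and Smad7, the library labelled Ko 24 h lay inside the range of the 3 fx/fx libraries. This held for 779 of the 1379 genes that were lower without overlap, a share like that of the Smad genes, or 5.94% of all genes tested. In bulk RNA, fewer cells of a type and less RNA per cell cannot be told apart.

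**Figure D1:**
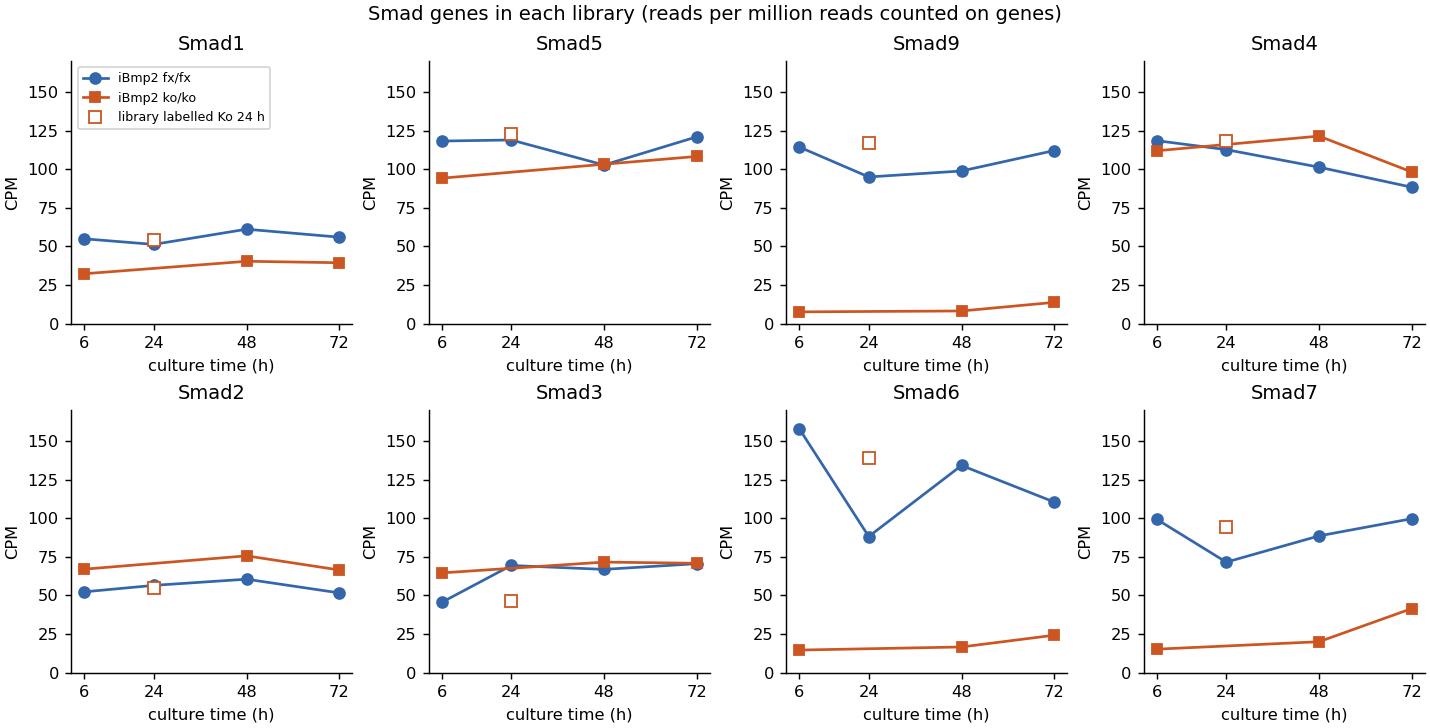
CPM of each Smad gene (vertical axis) against culture time in hours, with circles for fx/fx, filled squares for ko/ko and an open square for the library labelled Ko 24 h, 1 library per point. The 3 filled squares of Smad9, Smad6 and Smad7 lie far below all circles, while the open square lies at 117, 139 and 94.3 CPM, among or above them.

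Of the 8 genes tested within 500 kb of Smad9 and the 11 within 500 kb of Smad6 none passed, where 2.22% of all genes tested did. The promoters of Smad9 and Smad6, the genes that passed the test, are shown. These are the 250 bases before each start in the RefSeq promoter table (GRCm38.p6), matched without mismatch and once only to mm9, at chr3:54559254-54559503 on the plus strand for Smad9 and chr9:63869867-63870116 on the minus strand for Smad6. Capitals mark GGCGCC, a GC-rich motif that BMP-activated Smads can bind and that is its own reverse complement.
Smad9: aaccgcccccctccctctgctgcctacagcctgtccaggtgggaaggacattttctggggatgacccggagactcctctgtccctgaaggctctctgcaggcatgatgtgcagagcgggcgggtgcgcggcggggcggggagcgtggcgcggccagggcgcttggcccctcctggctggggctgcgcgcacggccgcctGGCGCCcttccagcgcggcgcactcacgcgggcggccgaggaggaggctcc
Smad6: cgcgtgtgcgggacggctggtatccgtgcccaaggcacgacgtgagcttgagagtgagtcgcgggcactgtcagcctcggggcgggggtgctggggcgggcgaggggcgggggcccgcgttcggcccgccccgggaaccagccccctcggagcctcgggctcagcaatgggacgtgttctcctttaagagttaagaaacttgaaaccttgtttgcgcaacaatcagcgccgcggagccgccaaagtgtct
The Smad9 window held 1 GGCGCC, starting 51 bases before the start, and the Smad6 window held none, where 9.59% of the 32851 promoters of the table hold it in 250 bases. Neither window held CAGAC on either strand, a short Smad-binding motif present in 42.2% of the promoters. The GC content was 73.2% for Smad9 and 66.8% for Smad6, with a median of 52.4% over all promoters. Of the other members, Smad1 and Smad3 held neither motif, and Smad5 held GGCGCC in 1 and CAGAC in another of its 3 windows. Smad2, Smad4 and Smad7 had no entry in the table.

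Among the BMP-activated Smads, Smad9 differed most between the genotypes. Smad9 (chromosome 3 of mm9, 54559504 to 54605179, plus strand) had 114, 98.8 and 112 CPM at 6, 48 and 72 h in fx/fx cells, against 7.62, 8.21 and 13.8 CPM in ko/ko cells. The highest ko/ko library of these times was thus far below the lowest fx/fx library. The counts behind these values were 3557, 3204 and 3509 reads against 224, 251 and 357 reads. The means were 108 ± 8.40 and 9.87 ± 3.40 CPM (SD, n = 3 each), an 11-fold difference. The log2 fold change was -3.45 (SE 0.29, 95% interval -4.13 to -2.76, adjusted p = 0.00534 by edgeR's quasi-likelihood test). The 24 h libraries had 95 CPM in fx/fx and 117 CPM in the library labelled Ko 24 h, which is 11.9 times the mean of the other ko/ko libraries.

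Smad1 and Smad5 share the receptors of Smad9 and are the more widely expressed BMP-activated Smads. Smad1 (chromosome 8, 81862294 to 81923417, minus strand) had 54.9, 61.1 and 56.0 CPM at 6, 48 and 72 h in fx/fx cells and 32.3, 40.4 and 39.4 CPM in ko/ko cells. Each ko/ko library was below each fx/fx library, but the gap was small beside that of Smad9. The means were 57.4 ± 3.32 and 37.4 ± 4.42 CPM, with a log2 fold change of -0.61 (SE 0.18, 95% interval -1.03 to -0.20, adjusted p = 0.172 by edgeR). With culture time as a block it was -0.62 (SE 0.11) and passed, with an adjusted p of 0.00868. At 24 h Smad1 had 51.3 CPM in fx/fx and 54.2 CPM in the library labelled Ko 24 h, above all other ko/ko libraries.

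Smad5 (chromosome 13, 56804371 to 56843738, plus strand) had 118, 103 and 121 CPM at 6, 48 and 72 h in fx/fx cells and 94.2, 103 and 108 CPM in ko/ko cells. The genotypes overlapped, since the libraries of 48 h were nearly level at 3330 and 3157 reads. By edgeR the log2 fold change was -0.16 (95% interval -0.55 to 0.23, adjusted p = 0.754), so a fall beyond 0.55 on the log2 scale lay outside the interval. The 24 h libraries had 119 and 123 CPM.

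The makeup of the BMP-activated set was compared per length of exons, as RPKM (CPM per kilobase of exons). Smad1, Smad5 and Smad9 summed to 45.4 ± 2.30 in fx/fx and 22 ± 2.16 in ko/ko cells (SD, n = 3 each), a ratio of 2.07. Smad9 made up 44.4 ± 1.31% of that sum in fx/fx cells and 8.26 ± 2.15% in ko/ko cells. The share of Smad5 was 33.8 ± 1.27% and 62.5 ± 1.83%, and that of Smad1 was 21.8 ± 2.42% and 29.2 ± 1.58%. By RPKM Smad9 was thus the largest of the set in fx/fx cells and the smallest in ko/ko cells at 6, 48 and 72 h. The lengths merge the exons of all annotated transcripts, with 7420 bases for Smad5 and 5368 bases for Smad9. In CPM the fx/fx mean of Smad5, 114, was above that of Smad9, 108. In the library labelled Ko 24 h the sum was 47.7 RPKM and the share of Smad9 45.7%, beside 42.5 RPKM and 41.6% in fx/fx at 24 h. No test was made on these sums and shares, which rest on the genes tested above.

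**Figure D2:**
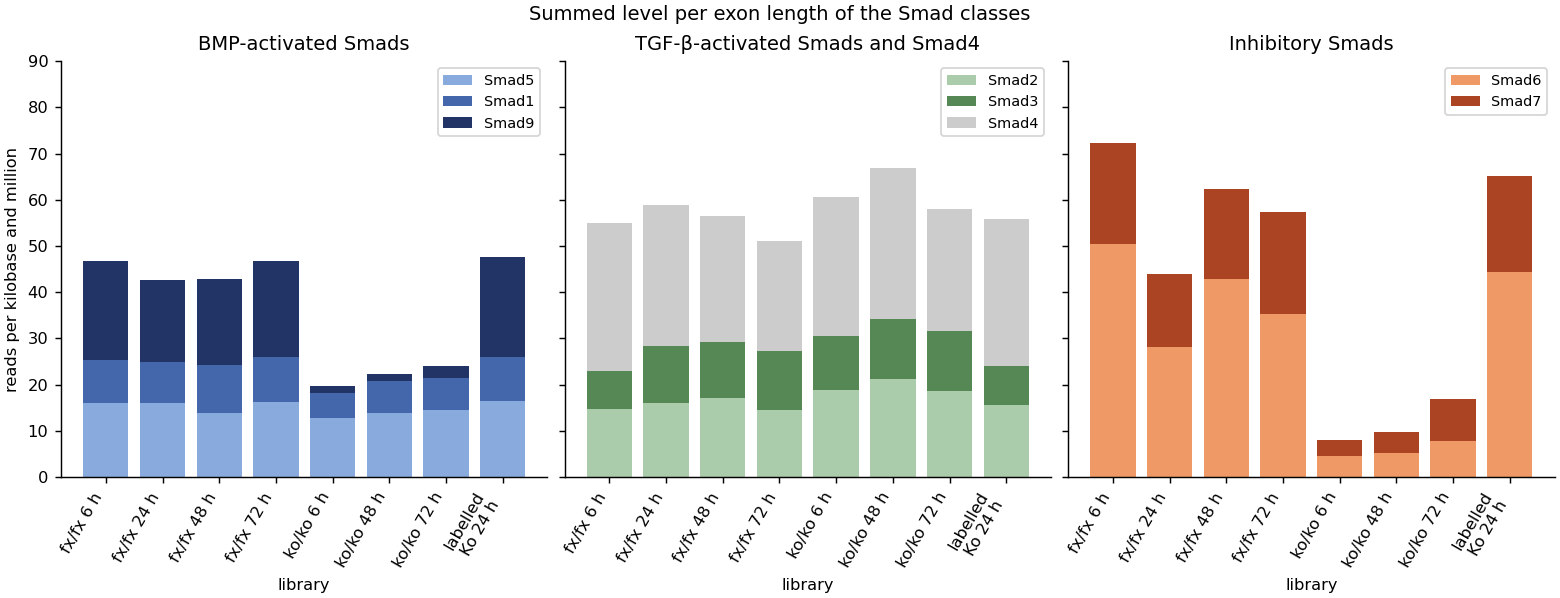
Stacked RPKM (CPM per kilobase of exons, vertical axis from 0) of the BMP-activated Smads, of Smad2, Smad3 and Smad4, and of the inhibitory Smads, 1 bar per library. The ko/ko bars of 6, 48 and 72 h are low in the left and right panels, where the library labelled Ko 24 h reaches 47.7 and 65.1 RPKM, and not in the middle panel.

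Smad6 and Smad7, the inhibitory Smads, were both lower in the ko/ko cells of 6, 48 and 72 h. Smad6, which acts mainly against BMP signals (chromosome 9, 63800953 to 63869866, minus strand), had 158, 134 and 110 CPM at these times in fx/fx cells and 14.7, 16.7 and 24.3 CPM in ko/ko cells. The lowest fx/fx library was several times above the highest ko/ko library. The counts were 4915, 4350 and 3459 reads against 431, 510 and 629 reads. The means were 134 ± 23.8 and 18.5 ± 5.08 CPM (SD, n = 3 each), a 7.24-fold difference. The fitted log2 fold change was -2.84 (SE 0.26, 95% interval -3.46 to -2.22, adjusted p = 0.00650 by edgeR). At 24 h Smad6 had 88.2 CPM in fx/fx, the lowest of that genotype, and 139 CPM in the library labelled Ko 24 h.

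Smad7, which inhibits both BMP and TGF-β signals (chromosome 18, 75527183 to 75555589, plus strand), had 99.4, 88.6 and 99.7 CPM at 6, 48 and 72 h in fx/fx cells. In ko/ko cells it had 15.2, 20.1 and 41.6 CPM, from 448, 614 and 1076 reads. The genotypes did not overlap, but the ko/ko library of 72 h stood above the others. The means were 95.9 ± 6.33 and 25.6 ± 14.0 CPM, a 3.74-fold difference. The log2 fold change was -1.89 (SE 0.39, 95% interval -2.80 to -0.98, adjusted p = 0.0621 by edgeR), which did not pass. With culture time as a block it was -2.03 (SE 0.25) and passed, with an adjusted p of 0.00180, and without the ko/ko library of 72 h it was -2.48 with an adjusted p of 0.00455. Leaving out any other library gave adjusted p from 0.132 to 0.226. At 24 h Smad7 had 71.6 CPM in fx/fx and 94.3 CPM in the library labelled Ko 24 h.

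Summed per length, the inhibitory Smads stood at 64.0 ± 7.68 RPKM in fx/fx and 11.6 ± 4.72 RPKM in ko/ko cells, a 5.53-fold difference. They made up 39.0 ± 2.38% and 12 ± 4.44% of the RPKM of all 8 Smads. Relative to the BMP-activated Smads, the inhibitory Smads stood at a ratio of 1.41 ± 0.168 in fx/fx and 0.517 ± 0.165 in ko/ko cells. The ratio of Smad6 to Smad7 was 2.02 ± 0.374 and 1.14 ± 0.276. The 24 h libraries held 44.0 RPKM of inhibitory Smads in fx/fx and 65.1 RPKM in the library labelled Ko 24 h, or 30.2% and 38.6% of all Smads. As for the BMP-activated set, these sums were not tested.

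Smad4, the common partner, did not pass the test and its genotypes overlapped. Smad4 (chromosome 18, 73798663 to 73863434, minus strand) had 118, 101 and 88.3 CPM at 6, 48 and 72 h in fx/fx cells and 112, 121 and 98.2 CPM in ko/ko cells. The ko/ko library was lower at 6 h and higher at 48 and 72 h. The fitted log2 fold change was 0.11 (95% interval -0.29 to 0.51, adjusted p = 0.845). The 24 h libraries had 113 and 118 CPM. Smad4 was the only member for which the library labelled Ko 24 h lay nearer to the ko/ko mean than to the fx/fx mean. Its level lay inside the ranges of both genotypes at 6, 48 and 72 h, so it does not set them apart.

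The TGF-β-activated Smads, Smad2 and Smad3, were not lower in ko/ko cells on average. Smad2 (chromosome 18, 76401234 to 76465385, plus strand) had 52.4, 60.6 and 51.7 CPM at 6, 48 and 72 h in fx/fx cells and 67.0, 75.7 and 66.5 CPM in ko/ko cells. Each ko/ko library was above each fx/fx library, and Smad2 was the only one of the 5 genes without overlap in which ko/ko was the higher. By edgeR the log2 fold change was 0.35 (SE 0.16, 95% interval -0.02 to 0.72, adjusted p = 0.393), and with culture time as a block it was 0.35 (SE 0.10) and passed, with an adjusted p of 0.0425. At 24 h the libraries were nearly level, at 56.6 CPM in fx/fx and 55.2 CPM in the library labelled Ko 24 h.

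Smad3 (chromosome 9, 63494574 to 63605801, minus strand) had 45.5, 66.9 and 70.6 CPM at 6, 48 and 72 h in fx/fx cells and 64.6, 71.6 and 70.9 CPM in ko/ko cells. The fx/fx library of 6 h was low and the other 5 libraries lay close together, so the genotypes overlapped. The fitted log2 fold change was 0.18 (95% interval -0.33 to 0.69, adjusted p = 0.797), and it turned to -0.03 without fx/fx at 6 h. The fx/fx library of 24 h had 69.5 CPM and the library labelled Ko 24 h had 46.7 CPM, the lowest after that of fx/fx at 6 h. The sum of Smad2 and Smad3 was 26.5 ± 3.17 RPKM in fx/fx and 32.1 ± 1.92 RPKM in ko/ko cells.

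**Figure D3:**
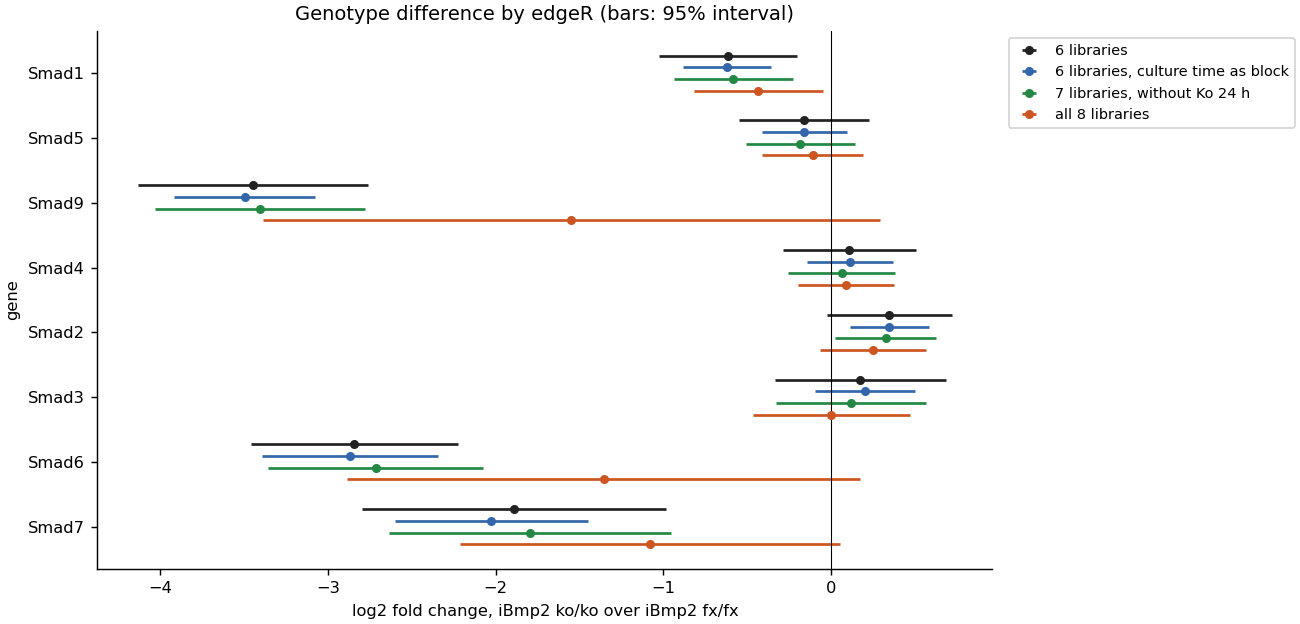
Log2 fold change of ko/ko over fx/fx (horizontal axis) for each Smad gene by edgeR, with bars for the 95% interval, over 6 libraries without and with culture time as a block, over 7 libraries without the library labelled Ko 24 h, and over all 8. Adding that library moves Smad9 from -3.41 over 7 libraries to -1.55 over all 8 and Smad6 from -2.72 to -1.36, with wider intervals that include 0.

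The calls rested on which libraries entered the test. With fx/fx at 24 h added and the library labelled Ko 24 h left out, Smad9, Smad6 and Smad7 passed, with adjusted p = 0.00125, 0.00286 and 0.0374 by edgeR, where 3.66% of all genes tested passed. With all 8 libraries and no block no Smad gene passed, nor did any other gene tested, against 10.2% of genes at an unadjusted p under 0.05, and the log2 fold changes were -1.55 for Smad9, -1.36 for Smad6 and -1.08 for Smad7. With the block over all 8 libraries they were -2.68, -2.10 and -1.45, and no Smad gene passed. Without the ko/ko library of 48 h, no Smad gene passed, with -3.32 and an adjusted p of 0.0572 for Smad9. Without the fx/fx library of 48 h, Smad9 passed at an adjusted p of 0.0415 and Smad6 did not, at 0.0546. With culture time as a block, 5 of the 8 genes passed, against 22.7% of all genes tested.

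Ordered by mean RPKM, the fx/fx cells held Smad6 (42.8 ± 7.58), Smad4 (27.7 ± 4.08), Smad7 (21.2 ± 1.40), Smad9 (20.2 ± 1.56), Smad2 (15.5 ± 1.39), Smad5 (15.4 ± 1.33), Smad3 (11 ± 2.44) and Smad1 (9.87 ± 0.571). Smad7 and Smad9, Smad2 and Smad5, and Smad3 and Smad1 each differed by less than the larger of their SDs, so the order within these pairs is not firm. In ko/ko cells of 6, 48 and 72 h Smad4 led at 29.8 ± 3.15, followed by Smad2 at 19.7 ± 1.45, Smad5 at 13.7 ± 0.963 and Smad3 at 12.5 ± 0.694. Smad1 (6.43 ± 0.760), Smad6 (5.91 ± 1.62) and Smad7 (5.67 ± 3.10) lay within their SDs, and Smad9 was last at 1.84 ± 0.634. All 8 Smads together came to 164 ± 9.54 RPKM in fx/fx and 95.5 ± 6.10 RPKM in ko/ko cells.

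The gap between the genotypes was described at each time, where 1 library stood for each genotype and no test was possible. Smad9 in ko/ko was at 6.66% of fx/fx at 6 h, 8.30% at 48 h and 12.3% at 72 h. Smad6 was at 9.28%, 12.4% and 22%, and Smad7 at 15.3%, 22.7% and 41.7%. All 3 genes, and no other Smad gene, were thus at no more than 50% of fx/fx at 6, 48 and 72 h, as were 5.82%, 4.73% and 3.99% of all genes tested at these times (on CPM with 0.5 added), and none was at 24 h, against 2.09%. Among the times 6, 48 and 72 h the gap was widest at 6 h and narrowest at 72 h for all 3 genes, and the counting intervals of 6 and 72 h did not overlap. For Smad7 the log2 ratio was -2.70 at 6 h (95% counting interval -2.85 to -2.56) and -1.26 at 72 h (-1.36 to -1.16), where the intervals cover counting error only. At 24 h the order was turned, with the library labelled Ko 24 h at 123% of fx/fx for Smad9, 158% for Smad6 and 132% for Smad7. A Ko 24 h level at least 1.2 times that of fx/fx at 24 h was found in 27.7% of all genes tested.

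**Figure D4:**
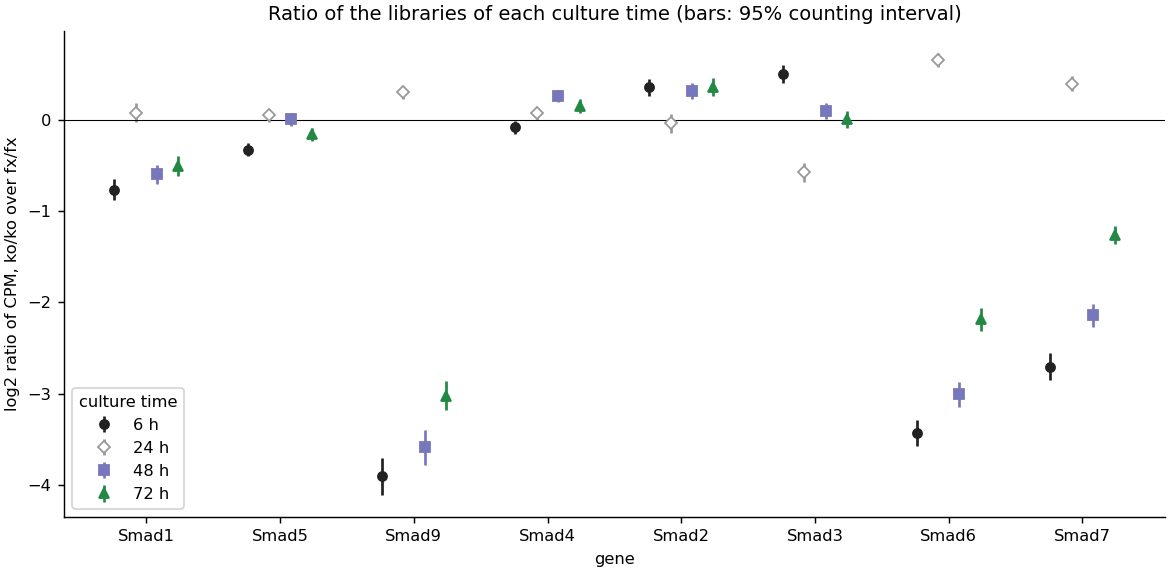
Log2 ratio of CPM, ko/ko over fx/fx (vertical axis), for each Smad gene at 6, 24, 48 and 72 h, 1 library per genotype at each time, with bars for the 95% counting interval. Smad9, Smad6 and Smad7 run from -3.91, -3.43 and -2.70 at 6 h to -3.02, -2.19 and -1.26 at 72 h, while the open diamonds of 24 h lie above 0.

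Change with culture time itself was tested as a slope on the log2 of hours over the 6 libraries, common to both genotypes. No Smad gene passed, nor did any gene tested by edgeR, where 21.1% of genes had an unadjusted p under 0.05 and DESeq2 called 978 genes, none of them a Smad gene. Smad3 had the smallest p of the members, with 0.13 per doubling of time (SE 0.05, unadjusted p = 0.0429, adjusted p = 0.228). Its level in fx/fx cells at 72 h was 1.55 times that at 6 h, against 1.10 times in ko/ko cells. Smad7 had a slope of 0.17 (SE 0.11, adjusted p = 0.373), which was 0.36 without fx/fx at 6 h, 0.043 without ko/ko at 6 h and 0.055 without ko/ko at 72 h. In ko/ko cells Smad7 at 72 h was 2.73 times its level at 6 h, Smad9 1.81 times and Smad6 1.66 times, and in fx/fx cells the ratios were 1.00, 0.980 and 0.699.

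Whether these slopes differed between genotypes was tested as an interaction. The difference in slope, ko/ko minus fx/fx, was 0.35 for Smad7 (SE 0.18), 0.28 for Smad6 (SE 0.13) and 0.21 for Smad9 (SE 0.15) per doubling of time, with unadjusted p = 0.107, 0.0760 and 0.228 by edgeR. Leaving out each library in turn moved these from -0.03 to 1.98, from 0.18 to 1.22 and from -0.20 to 1.48, so the sign for Smad7 and Smad9 was not stable. None of the 8 genes passed, all with an adjusted p of 1, and no gene of the whole table passed, with 0.48% at an unadjusted p under 0.05. The narrowing of the gap with time is therefore a description of single libraries. Each slope rested on 3 libraries per genotype.

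The Smad genes lie in part close to each other, so their genomic neighbours were examined. Smad3 and Smad6 are 195 kb apart on chromosome 9, and while Smad6 fell in ko/ko cells, Smad3 did not pass. Of the 11 genes tested within 500 kb of Smad6 none passed, with log2 fold changes of -0.63 to 0.68 and a median of 0.16. The 8 genes tested around Smad9 ran from -0.58 to 1.32 with a median of -0.26, and none passed. The median of chromosome 3 was -0.39 over 633 genes, the lowest of the chromosomes, beside 0.03 for all genes tested. Bmpr1b, Trim33, Wwtr1, Skil and Hey1, named below, also lie on chromosome 3, and its part in their levels was not tested. The median of chromosome 18, which holds Smad2, Smad4 and Smad7, was 0.18 over 335 genes. The 6 genes tested around Smad7 ran from -0.92 to 1.49 with a median of 0.42, and none passed. Since 2.22% of all genes tested passed, windows with so few genes would mostly hold no call. These windows describe the surroundings of Smad9, Smad6 and Smad7 and were not tested as groups.

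A lncRNA, RP24-263P17.1, lies head to head with Smad7 on the minus strand of chromosome 18 (75524986 to 75526742), with 440 bases between the starts, and was chosen after its location was seen. It had 154, 116 and 142 reads at 6, 48 and 72 h in fx/fx cells and 59, 76 and 86 reads in ko/ko cells, without overlap. The 24 h libraries had 82 reads in fx/fx and 138 reads in the library labelled Ko 24 h, so its order at each time was that of Smad7. The means were 4.36 ± 0.705 and 2.60 ± 0.665 CPM, and the log2 fold change was -0.73 (SE 0.32, adjusted p = 0.465 by edgeR), which did not pass, where 1.27% of the lncRNAs tested did. The annotated gene bodies do not overlap.

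The genes most like Smad9, Smad6 and Smad7, the 3 members with the widest range over the 8 libraries, were found by the root mean square distance between centred log2 CPM profiles over 8 libraries, among 10938 other genes. Dock3, at a distance of 0.183, Kcnn4 at 0.310 and Odz3 at 0.329 were nearest to Smad9, where the median gene lay at 1.73. Mboat2 and Grhl1 were among the nearest to Smad6, at 0.264 and 0.285, with a median of 1.40. Runx3, Unc5b and Nrn1 were nearest to Smad7, at 0.193, 0.201 and 0.235, with a median of 1.06. Of the members, Smad6 ranked 8 for Smad9 and Smad9 ranked 10 for Smad6, whereas Smad7 ranked 42 for Smad9 and 16 for Smad6. All these distances share the same 8 libraries, and the level of the library labelled Ko 24 h is part of each profile.

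Upstream of the Smads, none of the 11 receptor genes tested passed, although 8 were lower, with a median log2 fold change of -0.93 beside 0.03 for all genes tested. Acvr1, a type I receptor for BMPs, had 61.1 ± 6.48 CPM in fx/fx and 30.0 ± 8.21 CPM in ko/ko cells, with -1.02 (SE 0.25, adjusted p = 0.116). Acvrl1 was at -1.32 (adjusted p = 0.137), Tgfbr1, the type I receptor of TGF-β, at -0.95 (0.160) and Bmpr1b at -2.45 (0.186). With culture time as a block 6 receptor genes passed, all lower, where 11.4% of all genes passed lower, among them Acvr1, Acvrl1, Tgfbr1 and Bmpr1b at adjusted p = 0.00181, 0.00251, 0.00116 and 0.00120. Of the BMP ligands only Bmp4 and Bmp6 passed the filter, at -0.47 (adjusted p = 0.694) and 0.00. None of the 6 TGF-β and activin ligands tested passed, with a median of -0.29, and Tgfb2 was at 0.57 (adjusted p = 0.489). Of these ligands 1 passed with culture time as a block, Tgfb1 at -0.36 (adjusted p = 0.0406).

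Proteins that act on the Smads themselves or bind them were counted next. Of 15 ubiquitin ligases, deubiquitinases and phosphatases none passed, with 6 lower, 9 higher and a median of 0.03. Trim33, a ligase that acts on Smad4, was at -0.71 (adjusted p = 0.190), and Smurf2, which pairs with Smad7 at receptors, at -0.38 (adjusted p = 0.422). Usp9x was at -0.73 (adjusted p = 0.384) and Pdp1 at 0.68 (adjusted p = 0.413). Of 13 anchors and nuclear partners none passed, with 11 lower and a median of -0.49, and Wwtr1 had the smallest p, at -0.63 (adjusted p = 0.169), followed by Sp1 at -0.49, Zeb2 at -0.74 and Ep300 at -0.59. With culture time as a block 5 genes of the first list passed, 2 of them lower, and 7 of the second, all lower, against 22.7% of all genes tested in either direction and 11.4% lower. Of the genes named, Trim33 (adjusted p = 0.0101), Usp9x (0.0211), Pdp1 (0.0209), Wwtr1 (0.00518), Sp1 (0.0194), Zeb2 (0.00621) and Ep300 (0.0300) passed with the block, and Smurf2 (0.0514) did not.

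Among 9 Smad co-repressors, 8 were lower, with a median of -0.24, and 1 passed, where 1.3% of all genes tested passed lower. This was Skil, which binds Smads to hold their targets silent, with 156 ± 12 CPM in fx/fx and 49.2 ± 15.7 CPM in ko/ko cells and -1.66 (SE 0.27, adjusted p = 0.0294). Ski, its relative, was at -0.65 (adjusted p = 0.142), and passed with culture time as a block at -0.65 (adjusted p = 0.00820). At 24 h Skil had 157 CPM in fx/fx and 171 CPM in the library labelled Ko 24 h, the same order as for Smad6, Smad7 and Smad9.

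Downstream, 12 of 13 known BMP-Smad targets tested were lower in ko/ko cells, with a median of -2.95, and 4 of them passed, against 1.3% of all genes tested that passed lower. Hey1, a transcriptional repressor, had 23.5 ± 6.54 CPM in fx/fx and 0.270 ± 0.172 CPM in ko/ko cells, with -6.42 (SE 0.52, adjusted p = 0.00502). Atoh8 had 115 ± 11.6 and 14.7 ± 8.86 CPM, with -2.95 (SE 0.43, adjusted p = 0.0210), and Id4 had 14.2 ± 4.44 and 1.2 ± 0.729 CPM, with -3.55 (SE 0.52, adjusted p = 0.0213). Dlx3, a homeobox gene of the dental mesenchyme, had 152, 105 and 39 reads in fx/fx and 1, 1 and 0 reads in ko/ko cells at 6, 48 and 72 h (adjusted p = 0.0130), and its size of change is not given because the ko/ko counts lie under the floor of 3. Bambi, which encodes a decoy receptor, was the only target tested that was higher, at 1.65 (adjusted p = 0.0624). At 24 h Hey1 had 6.21 CPM in fx/fx and 25.2 CPM in the library labelled Ko 24 h, and Atoh8 had 84.4 and 102 CPM.

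Of 15 TGF-β-Smad targets 13 were lower, with a median of -0.82, and 2 passed, both lower, against the same 1.3% of all genes. These were Skil, which is also on the co-repressor list, and Klf10, a transcription factor of the early TGF-β response, with 222 ± 7.94 and 71.2 ± 21.1 CPM and -1.63 (SE 0.25, adjusted p = 0.0243). Col3a1, a fibrillar collagen, was at 1.51 (adjusted p = 0.0534), and Ltbp2, a microfibril-associated protein, at -1.91 (adjusted p = 0.186). With culture time as a block 11 BMP-Smad targets passed lower and 1 higher, and 9 TGF-β-Smad targets passed lower and 1 higher, against 11.4% of all genes tested that passed lower and 22.7% in either direction. Bambi, Col3a1 and Ltbp2 were among them, at adjusted p = 0.00792, 0.00423 and 0.00117. Smad6 and Smad7, themselves targets of these pathways, were kept out of both lists.

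**Figure D5:**
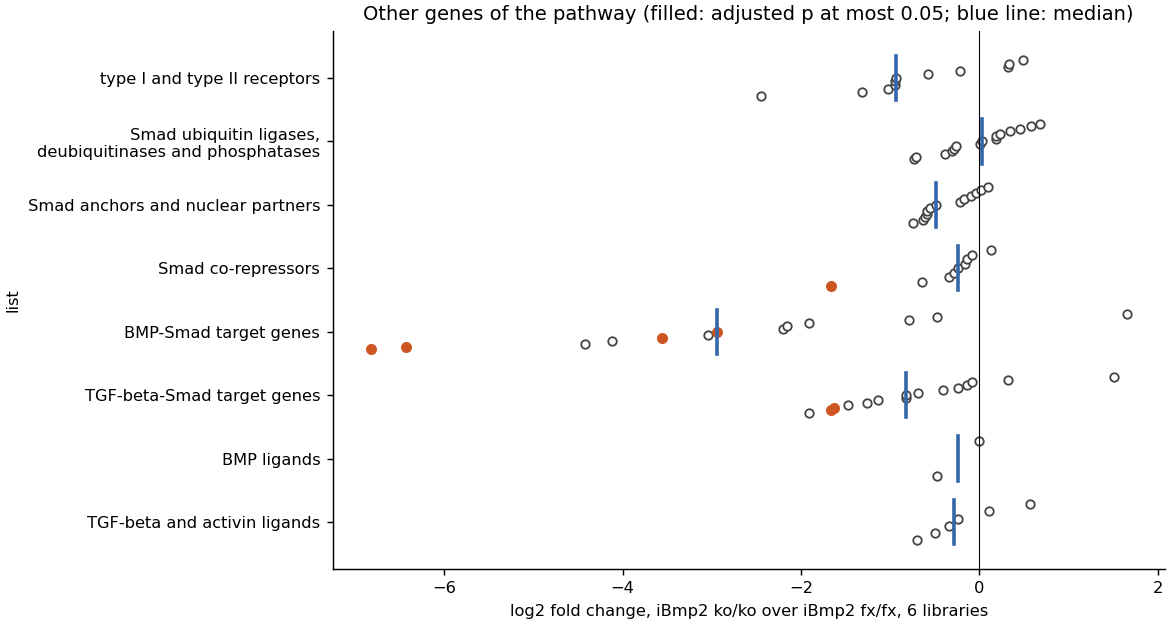
Log2 fold change of ko/ko over fx/fx (horizontal axis) for the other genes of the pathway that were tested over 6 libraries, 1 point per gene, filled where the adjusted p was at most 0.05, with a vertical line at the median of each list. The BMP-Smad targets lie farthest to the left, with a median of -2.95, and the point of Dlx3 at the far left is a fitted value that depends on the prior count.

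Markers of the dental mesenchyme and of other cell types were summed in the same libraries. The dental mesenchyme sum that was 33.6 to 51.4 CPM in ko/ko at 6, 48 and 72 h was 82.6 CPM in the library labelled Ko 24 h and 68.6 CPM in fx/fx at 24 h, the same grouping of libraries as for Smad6, Smad7 and Smad9. Most of that gap lay in Dlx2, a homeobox gene, with 50.1, 41.0 and 55.4 CPM in fx/fx and 3.74, 3.79 and 17.2 CPM in ko/ko at 6, 48 and 72 h, while Pax9 was higher in ko/ko at each of these times, at 2.72, 3.56 and 2.78 CPM against 1.96, 2.25 and 2.08 CPM. In fx/fx and ko/ko cells, 4 epithelial markers summed to 0.990 to 1.87 and 0.270 to 0.919 CPM, 4 endothelial markers to 1.47 to 3.02 and 0.811 to 1.14 CPM, and 3 blood cell markers to 4.09 to 14.1 and 2.63 to 3.40 CPM. The 3 muscle markers summed to 7.38 to 13.4 and 3.32 to 5.38 CPM, the 3 nerve and glia markers to 21.2 to 42.1 and 44.6 to 58.5 CPM, and the 5 odontoblast markers to 0.958 to 2.50 and 1.14 to 1.58 CPM. Krt5, Tie1, Ptprc, Myog and Sox10 were at no more than 3 counts in all libraries, but other members of the same lists were detected. The highest counts in a library were 41 for Krt14, 81 for Kdr, 397 for Cd68, 427 for Des and 1675 for Tubb3. The part of these levels in the Smad results was not tested.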

How the data were processed

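The authors sequenced total RNA of 8 libraries, with reads of 50 bases that the labels call single-end and the methods paired. Per the submitters' processing notes, CASAVA 1.8.2, TopHat2 2.0.8b, HTSeq and the build mm9 were used; the annotation and strand setting are not given in the sources used here. The deposited values are raw counts per gene symbol and per lncRNA symbol. The design text gives 8 h where the labels give 6 h. HTSeq's summary rows, 52.0 to 59.0% of each gene table, were left out. Groups and times came from the labels.

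Counts were tested in R 4.3.3 with edgeR 4.0.16 (TMM, filterByExpr with a minimum of 10 counts and 15 in total, quasi-likelihood test, Benjamini-Hochberg over all genes tested). With 1 library per genotype and time, the times serve as replicates, so the spread holds any change with time, and p-values measure the spread between these libraries. Libraries of the same time deviated together from their genotype means (r = 0.713 at 6 h, 0.536 at 48 h and 0.840 at 72 h), so the time was taken to pair them, and values with the time as a block are given for the Smad genes where a call changed, and as counts for the lists. CPM is the count per 1000000 reads counted on genes, RPKM uses exon lengths of GENCODE M1 on mm9 (94.8% of symbols matched), and the script for the tests was tested on simulated data. A floor is 3 counts, and 95% counting intervals cover counting error only. The alternatives were other sets of libraries, the block, DESeq2 1.42.0, limma 3.58.1, no TMM, no filter, time in hours, and leaving out each library.

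The 8 members and the pathway and marker lists were chosen with earlier results of these data known. Named genes are the members, up to 4 genes of smallest p per list, the 3 genes most alike to the 3 members of widest range (mean of at least 100 counts), and Bmp2. A gene that this rule names for Smad6 is not reported here. Bambi, Tgfb1, Dlx2, Pax9, Twist1, Pdgfra, the other markers named, the lncRNA by Smad7 and the 24 h values named beside them were added after values or locations were seen. Figures were made with Python 3.11.15, pandas 2.3.3 and matplotlib 3.10.9. RT-qPCR and network results of the study were not analysed here.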

Additional observations from a re-analysis of the deposited data

Results flagged for a closer look

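Libraries of 1 genotype were screened for a library far from the other 3 by the gap to its nearest neighbour as a share of the range, against Dixon's 95% limit for 4 libraries, a limit that chance passes in about 5% of groups. It was applied to 16 groups of Smad levels and 26 groups of sums, shares and ratios, many of which share the same genes. Smad3 in fx/fx passed it at 0.878, with the library of 6 h low at 45.5 CPM, and Smad5 in fx/fx at 0.860, with the library of 48 h low at 103 CPM. The Smad1 share of the BMP-activated Smads in fx/fx passed it at 0.884, with the library of 48 h high. In the ko/ko libraries, the library labelled Ko 24 h stood apart in the summed RPKM of BMP-activated Smads (0.847), in the shares of Smad9 (0.900) and Smad5 (0.879) in that sum, in the sum of inhibitory Smads (0.844) and in the sum of all Smads (0.867). These sums and shares hold Smad6, Smad7 or Smad9, in which that library was already known to differ, so they repeat that observation.

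For 6 members the log2 ratio of ko/ko over fx/fx at 24 h had the opposite sign to that at 6, 48 and 72 h. The 24 h ratio was 0.079 for Smad1, -0.036 for Smad2, -0.57 for Smad3, 0.66 for Smad6, 0.40 for Smad7 and 0.30 for Smad9. The 95% counting interval included 0 at 24 h for Smad1 (-0.028 to 0.19) and Smad2 (-0.14 to 0.067), so their sign at 24 h was open within counting error. Both intervals still lay apart from those of the other times, which ended at -0.39 or below for Smad1 and began at 0.23 or above for Smad2. For Smad3 the interval was -0.68 to -0.47 at 24 h, also apart from those of the other times, of which that of 72 h included 0 (-0.084 to 0.096). The difference between the 24 h ratio and the others was not tested, since each time has 1 library per genotype.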

How the results depend on the processing

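Over all genes, the genotype test passed 291 genes over 6 libraries, 0 over all 8 (edgeR, 1336 at an unadjusted p under 0.05), 483 over 7 without the library labelled Ko 24 h, 2981 with culture time as a block over 6 libraries, 40 with the block over 8, 873 by DESeq2, and 9 to 383 when each library was left out in turn, with 9 without ko/ko at 48 h 14 without fx/fx at 48 h, 85 without ko/ko and 88 without fx/fx at 6 h, and 159 without fx/fx at 72 h. The 2 Smad genes that passed became 0 over all 8 libraries, 5 with the block over 6, 0 with the block over 8, 4 by DESeq2 and 0 to 3 leaving out each library. The block changed the call of Smad1, Smad2 and Smad7 over 6 libraries and no other Smad call, and over 8 libraries it gave -2.68 for Smad9 and -2.10 for Smad6, with adjusted p = 0.114 and 0.143. DESeq2 added Smad1 (adjusted p = 0.0416) and Smad7 (0.000325), and Smad7 also passed by limma (0.0430) and without the filter (0.0378). Its log2 fold change ran from -2.48 to -1.58 leaving out each library, and that of Smad3 from -0.027 to 0.32.

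The time slope passed 0 genes, and 1 over all 8 libraries, 4 in hours, 978 by DESeq2 and 0 to 196 leaving out each library, the 196 without ko/ko at 48 h. It passed no Smad gene in any of these. The slope of Smad6 turned to -0.066 and that of Smad9 to -0.021 over all 8 libraries, and that of Smad6 ran from -0.077 to 0.18 leaving out each library. The interaction passed 0 genes, and 0 to 1 leaving out each library. It turned to 0.020 for Smad2 and -0.071 for Smad9 over all 8 libraries. Leaving out each library it ran from -0.17 to 0.33 for Smad2, -0.25 to 0.24 for Smad4, -0.42 to 0.30 for Smad5, 0.18 to 1.22 for Smad6 (0.57 without fx/fx and 1.22 without ko/ko at 6 h, 0.18 without ko/ko at 72 h), -0.032 to 1.98 for Smad7 and -0.20 to 1.48 for Smad9. The cause of these shifts was not tested. Depth did not limit the Smad genes, which had at least 224 reads in each library, but Bmp2 could not be measured.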
